A study of Mus musculus with 18 samples.

Results

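The transcripts described here encode ligands and receptors of the platelet-derived growth factor (PDGF) and fibroblast growth factor (FGF) families in mouse embryonic fibroblasts (MEFs) given uracil. They are 10 genes of the 55487 gene identifiers counted, listed by name, and the list was made with earlier results of these data known. The PDGF members are the 4 ligands Pdgfa, Pdgfb, Pdgfc and Pdgfd and the 2 receptors Pdgfra and Pdgfrb. The FGF members are the ligands Fgf2 and Fgf7 and the receptors Fgfr1 and Fgfr2. Each symbol matched a single Ensembl identifier, and all 10 genes passed the filter on low counts. MEFs were kept for 24 h in serum-containing growth medium with 0 µM (control), 10 µM or 30 µM uracil, the pyrimidine base of RNA, and total RNA was sequenced from 6 libraries per dose, which the labels number 1 to 6. All 18 libraries came from cultured MEFs, and the labels give no genotype, strain or passage. The questions that the design allows are whether uracil altered these transcripts, and whether they differed between libraries of different number.

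PDGF ligands are secreted dimers that bring together a pair of receptor tyrosine kinases, and in connective tissue they drive fibroblasts and pericytes to divide and migrate. The A and B chains are secreted in active form, whereas the C and D chains must first be cut by proteases such as plasminogen activators. FGF ligands bind FGF receptors together with heparan sulphate, and Fgf7 is made by mesenchymal cells and acts on epithelium through a splice form of Fgfr2. Both families signal through RAS and ERK, which switches on immediate early genes such as Egr1 and Fos and the inhibitors (Spry and Dusp proteins) that damp the same pathway.

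Libraries differed in depth and quality. Control replicate 1 held 3.96 M gene counts (M, 1000000) with 54.2% of its read pairs unaligned, 30 µM replicate 6 held 7.39 M with 37.9% unaligned, and 10 µM replicate 6 held 14.7 M with 5.24% unaligned. The other 15 libraries held 11.6 M to 20.8 M, with 1.72% to 3.59% unaligned. Results are therefore given for all 18 libraries and, where it matters, without these 3. Without them control lacks number 1 and both uracil doses lack number 6, so dose and number are then not balanced. All 12 genes of a fibroblast marker list (Col1a1, Vim and Prrx1 among them) averaged at least 1 CPM (counts per 1000000), whereas Pecam1, Cdh5 and Tie1, which define endothelium, and Ptprc and Adgre1, which define leukocytes and macrophages, stayed below 0.5 CPM in every library and were at 0 in 3, 8, 13, 8 and 13 libraries. Other genes of the same lists were detected in every library: endothelial Kdr averaged 6.40 CPM and Tek 2.37, and macrophage Csf1r averaged 1.04 CPM and Cd68 0.938.

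Positions are those of the canonical transcript on build GRCm39. Of the ligand genes, the annotation places Pdgfa (ENSMUSG00000025856) at chr5:138961758-138981436 on the minus strand with 6 exons, Pdgfb (ENSMUSG00000000489) at chr15:79880075-79899181 on the minus strand with 7 exons, Pdgfc (ENSMUSG00000028019) at chr3:80943668-81121347 on the plus strand with 6 exons, and Pdgfd (ENSMUSG00000032006) at chr9:6168240-6379265 on the plus strand with 7 exons. The FGF ligand genes are Fgf2 (ENSMUSG00000037225) at chr3:37402495-37464257 on the plus strand with 3 exons, and Fgf7 (ENSMUSG00000027208) at chr2:125876578-125933408 on the plus strand with 4 exons. The PDGF receptor gene Pdgfra (ENSMUSG00000029231) lies at chr5:75312922-75358876 on the plus strand with 23 exons. The FGF receptor genes are Fgfr1 (ENSMUSG00000031565) at chr8:26008745-26066824 on the plus strand with 18 exons, and Fgfr2 (ENSMUSG00000030849) at chr7:129763471-129868272 on the minus strand with 18 exons. Counts were given for each gene as a whole, so splice forms of Fgfr1, Fgfr2 and the ligands cannot be told apart.

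Fgf7, Pdgfra and Fgfr2 were among the members that differed between replicate numbers, and their promoter sequences are shown because the table of RefSeq promoters (build GRCm38.p6) holds them. For Fgf7 the window is chr2:126034408-126034657 on the plus strand, for Pdgfra chr5:75152001-75152150 on the plus strand and for Fgfr2 chr7:130266809-130267058 on the minus strand. The Fgf7 and Fgfr2 windows are the 250 bases before the RefSeq start, and the Pdgfra window is the first 150 of those 250 bases, since another transcript's first exon covers bases nearer the start. The RefSeq start of Fgfr2 lies upstream of the canonical GENCODE start given above. Each is written 5′ to 3′ on the gene's own strand, and capitals mark a match to a CCAAT box, the only one of the motifs searched that was found in these 3 windows.
Fgf7: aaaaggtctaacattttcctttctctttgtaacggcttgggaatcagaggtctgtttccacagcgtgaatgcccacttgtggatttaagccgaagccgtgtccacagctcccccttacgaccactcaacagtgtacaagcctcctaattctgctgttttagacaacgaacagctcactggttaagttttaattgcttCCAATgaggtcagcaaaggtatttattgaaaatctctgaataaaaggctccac
Pdgfra: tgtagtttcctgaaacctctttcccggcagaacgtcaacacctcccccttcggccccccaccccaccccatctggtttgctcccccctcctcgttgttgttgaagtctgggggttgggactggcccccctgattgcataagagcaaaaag
Fgfr2: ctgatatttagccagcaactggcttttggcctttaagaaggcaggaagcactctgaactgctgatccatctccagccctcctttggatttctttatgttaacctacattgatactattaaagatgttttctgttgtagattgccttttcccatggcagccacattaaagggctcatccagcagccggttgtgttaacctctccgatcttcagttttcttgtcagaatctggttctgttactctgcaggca
The motifs searched, on both strands and over the 250 bases, were the GC box (GGGCGG), the TATA box (TATAAA), the CCAAT box (CCAAT) and an AP-1 site (TGAGTCA), none of which overlap here. The Fgf7 window held 1 CCAAT box, and the Pdgfra and Fgfr2 windows held no match to any of the 4. Of all 32851 promoter windows of this length, 32.7% held a GC box, 12.4% a TATA box, 33.9% a CCAAT box and 4.46% the AP-1 site. GC content was 43.6% in the Fgf7 window, 44.0% for Fgfr2 and 54.4% for Pdgfra, where the median of all windows was 52.4%. A match is a description of letters and not a sign that a factor was bound.

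Receptor transcripts of both families were abundant in these fibroblasts, and the ligand transcripts ranged from abundant to scarce. Levels between genes were compared as CPM divided by the length of the canonical transcript in kilobases. Pdgfrb, the receptor for the B and D chains, was the highest member with a median of 34.6 CPM per kilobase over 18 libraries (lowest 24.0, highest 45.0). Fgfr1, the main FGF receptor of mesenchymal cells, followed with a median of 19.9 CPM per kilobase (15.8 to 38.6). Pdgfra, which binds all PDGF chains but D, was far lower at 5.25 CPM per kilobase (3.64 to 8.58), so the 2 PDGF receptors stood apart: in the 15 libraries left without the 3 named above, Pdgfrb per kilobase was 5.43 to 7.98 times Pdgfra, with a median ratio of 6.84. The 2 FGF receptors were closer, with Fgfr1 at 1.08 to 2.00 times Fgfr2 in the same 15 libraries.

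**Figure D1:**
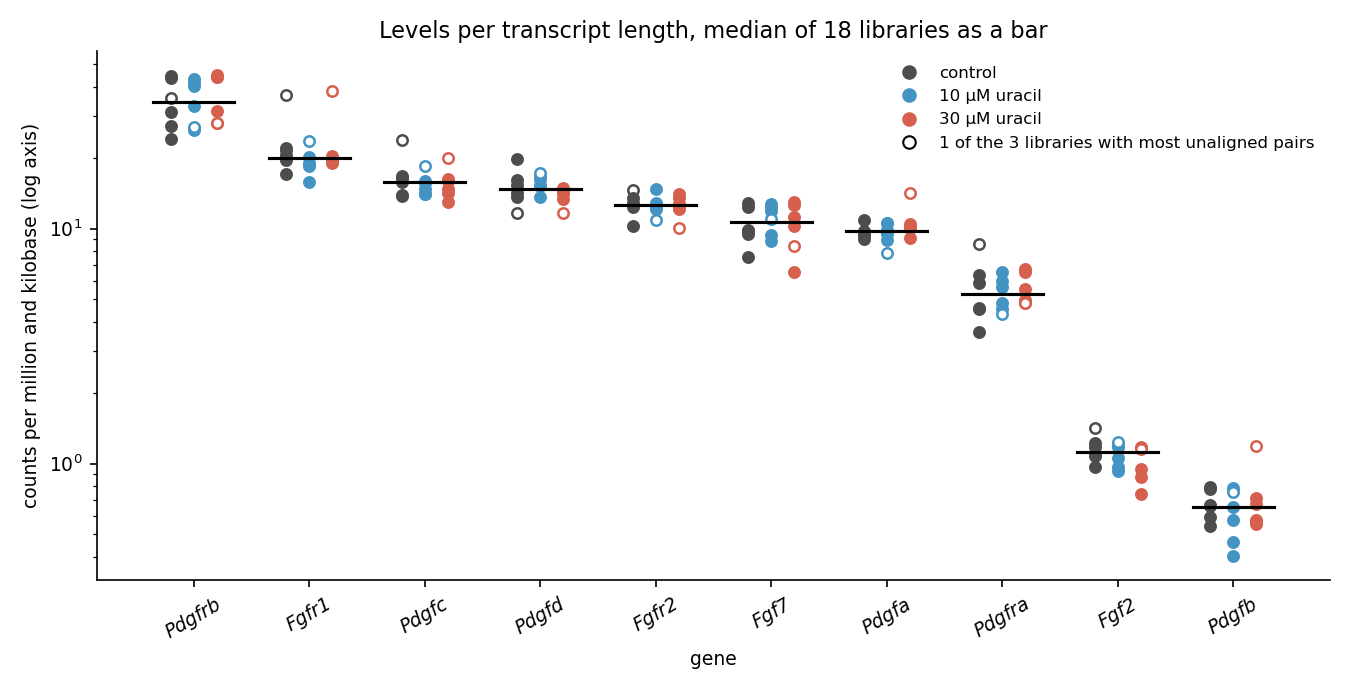
Levels of the 10 genes in CPM per kilobase of canonical transcript (y axis, logarithmic), ordered by their median; each point is 1 of 18 libraries, coloured by dose, open points are the 3 libraries with the most unaligned pairs, and the bar is the median of 18. Pdgfrb is at the top with a median of 34.6, 6 genes lie between 9.78 and 19.9, and Fgf2 and Pdgfb lie far below the others at 1.12 and 0.657.

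Among ligands, the protease-activated chains were the most abundant. Pdgfc had a median of 15.7 CPM per kilobase (13 to 23.7) and Pdgfd 14.7 (11.6 to 19.8). These 2 neighbours did not differ beyond their spread, since Pdgfc was the higher in 11 of 18 libraries and their order turned without the 3 libraries. Fgfr2 (12.6, from 10.1 to 14.7), Fgf7 (10.6, from 6.55 to 12.9) and Pdgfa (9.78, from 7.89 to 14.1) came next with overlapping ranges. Fgfr2 exceeded Fgf7 in 14 of 18 libraries and Fgf7 exceeded Pdgfa in 12 of 18, so neither step of the order was held by every library. The bottom of the order was clearer, with Pdgfra above Fgf2 in 18 of 18 libraries without overlap and Fgf2 above Pdgfb in 17 of 18. Fgf2, a ligand kept in the cell and the matrix for want of a secretion signal, had a median of 1.12 CPM per kilobase from 33 to 141 counts per library. Pdgfb, made mainly by endothelium and platelets, had a median of 0.657 CPM per kilobase from 9 to 46 counts per library, so its values carry the most counting error. When lengths were taken as the union of all exons of a gene, Pdgfrb, Fgfr1, Pdgfc, Pdgfa, Pdgfra, Fgf2 and Pdgfb kept their ranks, whereas Fgf7 moved above Pdgfd and Fgfr2.

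Uracil did not detectably alter any of the 10 transcripts. In edgeR's quasi-likelihood test over all 18 libraries, 0 of 13865 genes (0%) passed an adjusted p of 0.05 at 10 µM against control, at 30 µM against control or at 30 µM against 10 µM, with 96, 595 and 323 genes at an unadjusted p under 0.05, and no member was among the latter. DESeq2 likewise called 0 genes in each contrast. The members' log2 fold changes ran from -0.25 to 0.09 at 10 µM (median -0.04, against 0.0059 over all genes tested) and from -0.18 to 0.13 at 30 µM (median -0.0017, against 0.011). The smallest adjusted p of any member was 0.93. Taken over both doses, the 95% intervals of single members reached from a fold of 0.640 to 1.40, so changes beyond these bounds lay outside every interval.

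**Figure D2:**
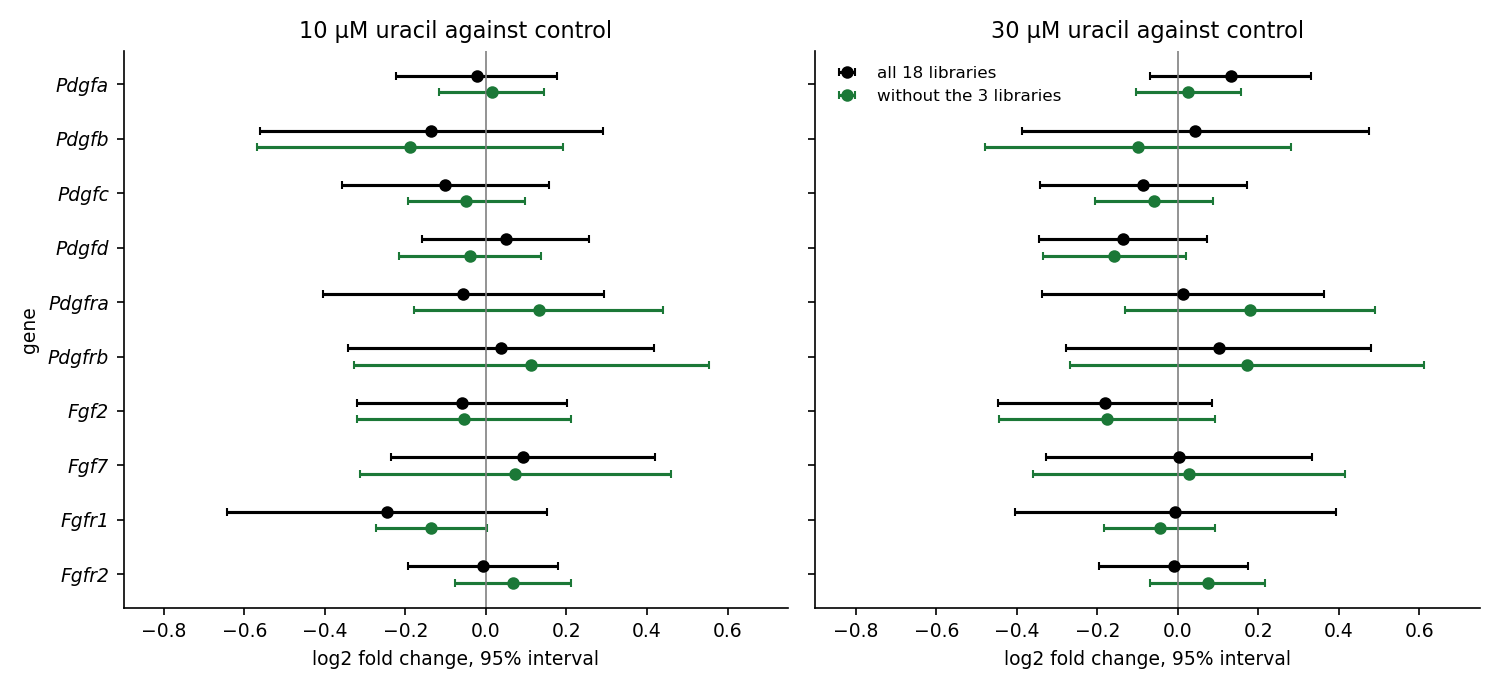
Log2 fold changes of the 10 genes (rows) at 10 µM (left) and 30 µM uracil (right) against control, with 95% intervals from edgeR; black uses all 18 libraries and green leaves out the 3 with the most unaligned pairs. Every black interval spans 0, with estimates from -0.25 (Fgfr1, 10 µM) to 0.13 (Pdgfa, 30 µM).

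The PDGF ligands illustrate how far the groups overlapped. Pdgfa, a chain active on secretion, measured 24.6, 25.9 and 29.5 CPM (lowest, median and highest of 6) in control, 21.4, 26.3 and 28.7 at 10 µM and 24.7, 27.6 and 38.4 at 30 µM. The highest 30 µM value belonged to replicate 6, and the groups overlapped throughout. Its log2 fold change at 30 µM was 0.13 (SE 0.10, edgeR adjusted p 0.93) and fell to 0.027 (SE 0.062) without the 3 libraries. Pdgfd, which binds Pdgfrb, measured 45.5, 57.8 and 77.6 CPM in control, 53.3, 61.8 and 67.5 at 10 µM and 45.3, 55.8 and 58.0 at 30 µM. Its values at 30 µM lay within the control range save for the lowest, and the log2 fold change was -0.14 (SE 0.10, edgeR adjusted p 0.93). Pdgfc measured 49.3, 57.7 and 84.8 CPM in control, 50.2, 54.3 and 66.2 at 10 µM, and 46.5, 54.8 and 71.6 at 30 µM. The highest value of each group came from one of the 3 libraries with the most unaligned pairs. Pdgfb ranged from 1.26 to 3.71 CPM over all libraries, and its interval at 10 µM ran from -0.56 to 0.29 on the log2 scale.

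Neither PDGF receptor differed by dose. Pdgfrb measured 130, 182 and 240 CPM in control, 142, 199 and 234 at 10 µM and 151, 205 and 244 at 30 µM. Each dose thus held both low and high libraries, and the log2 fold changes were 0.04 (SE 0.18) and 0.10 (SE 0.18). With replicate number also in the fit they were 0.04 and 0.10 (unadjusted p 0.45 and 0.081 in edgeR's test). Without the 3 libraries that fit gave -0.033 and 0.022. Against the control of the same number, Pdgfrb was higher in 3 of 6 numbers at 10 µM and 5 of 6 at 30 µM. No dose sat wholly above another. Pdgfra measured 24.0, 34.4 and 56.6 CPM in control, 28.4, 34.5 and 43.0 at 10 µM and 31.7, 34.6 and 44.4 at 30 µM. The medians nearly coincided, and the widest values were both in control. Its log2 fold changes were -0.06 (SE 0.17) and 0.01 (SE 0.17), and 0.13 (SE 0.15) and 0.18 (SE 0.15) without the 3 libraries. Dose and number are not balanced in that last fit. With number also in the fit of the same libraries, the values for Pdgfra were -0.023 and 0.027.

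Over all 18 libraries Fgfr1 had the widest range of dose means of the 10 (0.25 on the log2 scale), and without the 3 libraries it lost that rank (0.13, below 0.19 for Pdgfra and the values of Pdgfrb, Pdgfb, Fgf2 and Pdgfd). It measured 105, 129 and 228 CPM in control, 97.2, 115 and 144 at 10 µM and 116, 122 and 237 at 30 µM. The values of 228 and 237 CPM belonged to control replicate 1 and 30 µM replicate 6, the 2 libraries with the most unaligned pairs, whereas the other 16 libraries lay between 97.2 and 144 CPM. The log2 fold change at 10 µM was -0.25 (SE 0.19, edgeR adjusted p 1), and -0.14 (SE 0.07, edgeR adjusted p 1.00, unadjusted 0.054) without the 3 libraries. How far the unaligned pairs had a part in these values was not tested. Fgf2 measured 6.10, 7.11 and 8.89 CPM in control, 5.85, 7.04 and 7.78 at 10 µM and 4.69, 6.63 and 7.40 at 30 µM. Its log2 fold change at 30 µM of -0.18 (SE 0.13) was the lowest of the members at that dose and did not pass the test (edgeR adjusted p 0.93). Fgf7 measured 22.5, 29.1 and 38.1 CPM in control, 26.2, 33.9 and 37.7 at 10 µM and 19.5, 31.9 and 38.4 at 30 µM, again with full overlap. Fgfr2 varied little across doses, with medians of 71.6, 70.3 and 71.6 CPM and log2 fold changes of -0.0076 (SE 0.09) and -0.010 (SE 0.09).

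Libraries of the same number resembled each other in several members, whatever their dose. The labels do not say what a number stands for, such as a culture, an embryo or a day. With dose held in the fit, 1745 of 13865 genes (12.6%) differed between the 6 numbers in edgeR's test, and 4 of the 10 members were among them. These were Pdgfrb (adjusted p 7.33e-06), Pdgfra (0.00102), Fgf7 (0.00127) and Fgfr2 (0.00267). Without the 3 libraries 2890 of 13888 genes (20.8%) and 6 of the 10 members passed, with Pdgfc (adjusted p 0.0182) and Pdgfd (0.00839) added. Leaving out control replicate 1 alone gave 3498 genes and leaving out control replicate 6 alone gave 3271, and the 4 members named first passed in each of the 25 alternatives computed. Number 6 rests on control replicate 6 alone once the 3 libraries are left out.

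**Figure D3:**
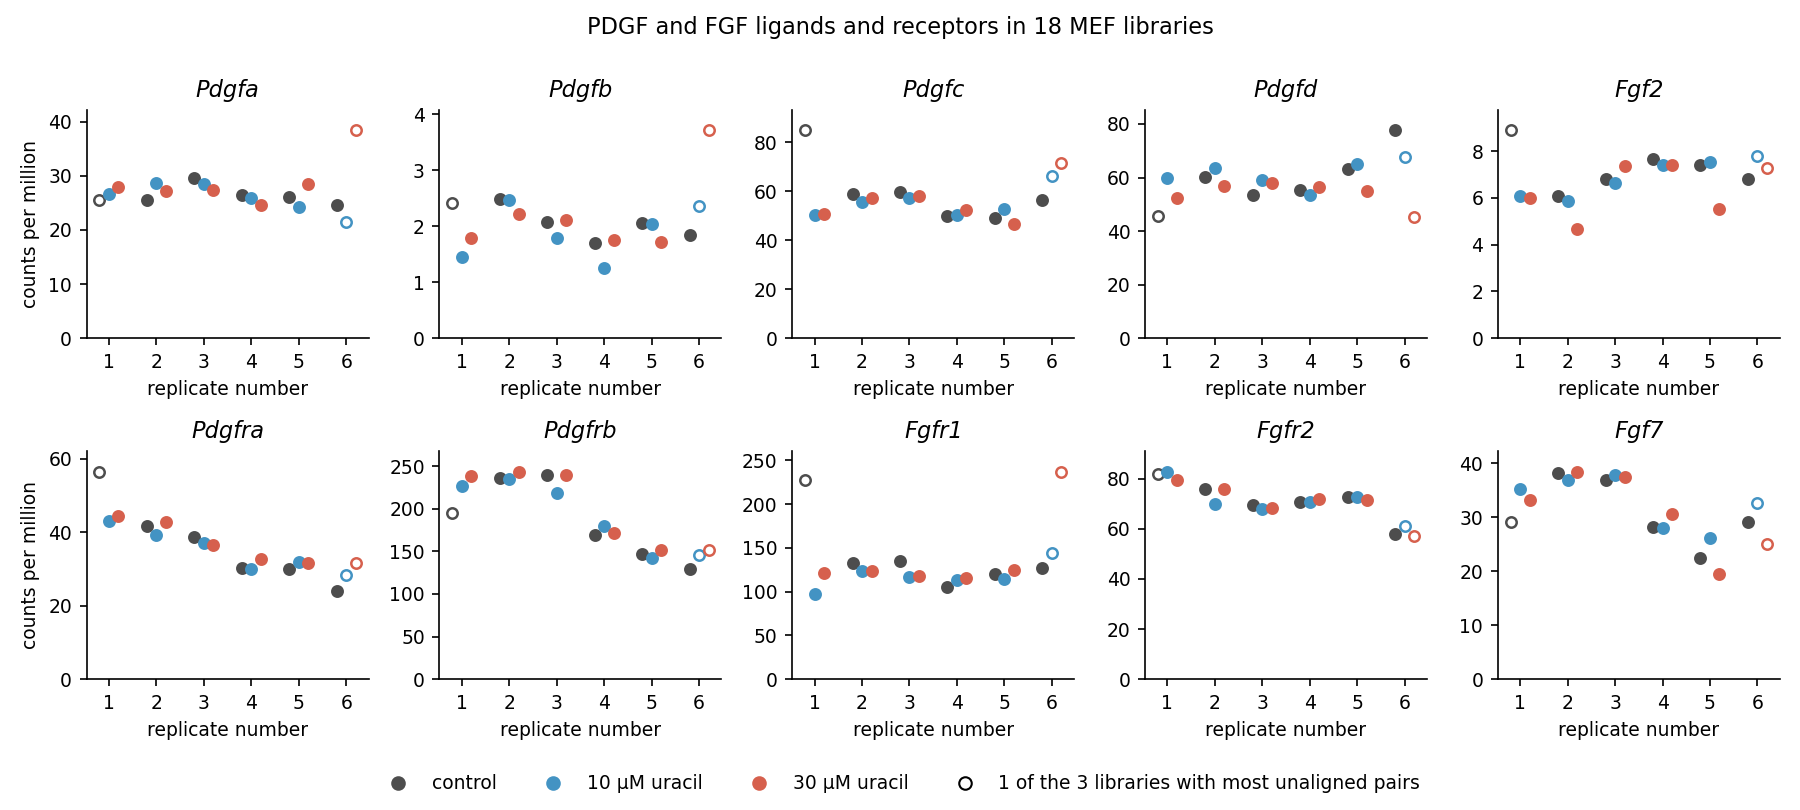
CPM of the 10 genes (panels, each y axis from 0) in the 18 libraries by replicate number (x axis), coloured by dose; open points are the 3 libraries with the most unaligned pairs. Pdgfrb lies at 195 to 244 in numbers 1 to 3 and at 130 to 180 in numbers 4 to 6 at every dose, and the open points of Fgfr1 at 228 and 237 stand above its other libraries.

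Pdgfrb (ENSMUSG00000024620), a gene of 23 exons at chr18:61178222-61218133 on the plus strand of GRCm39, had a 1.67-fold range of number means over all 18 libraries, beside 1.71 for Pdgfra, 1.67 for Fgf7 and 1.39 for Fgfr2. Its values in control, 10 µM and 30 µM were 195, 226 and 238 CPM in number 1, 235, 234 and 244 in number 2 and 240, 219 and 239 in number 3. They were 169, 180 and 172 CPM in number 4, 147, 142 and 151 in number 5 and 130, 145 and 152 in number 6. All 9 libraries of numbers 1 to 3 therefore lay above all 9 of numbers 4 to 6, a division seen in the values and given with no test. The share of all genes that divide in this way was not counted, so it is not a trait of the PDGF receptors. Among the pathway genes named below, Sdc2 divided likewise in all 18 libraries. Without the 3 libraries Nrp1 and Sdc3 did so too, and Il17rd divided in the opposite direction. The highest number mean was 238 ± 5.05 CPM (SD, n = 3) in number 2 and the lowest 142 ± 11.5 (SD, n = 3) in number 6, where the single library left without the 3 stood at 130 CPM, and number 5 was close to it at 147 ± 4.83 (SD, n = 3).

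Pdgfra was likewise higher in numbers 1 to 3 than in numbers 4 to 6, though the order within these differed from that of Pdgfrb. Its values in control, 10 µM and 30 µM were 56.6, 43.0 and 44.4 CPM in number 1, 41.7, 39.3 and 42.9 in number 2 and 38.6, 37.2 and 36.6 in number 3. They were 30.2, 29.9 and 32.7 CPM in number 4, 30.1, 31.9 and 31.7 in number 5 and 24.0, 28.4 and 31.7 in number 6. Again no library of numbers 1 to 3 fell within the range of numbers 4 to 6, and control replicate 1 was the highest library of all. Since both receptors were low in the same libraries, the ratio of Pdgfrb to Pdgfra per kilobase moved less than either, with number medians from 5.83 in number 5 to 7.56 in number 3 among the 15 libraries.

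Fgf7, whose protein acts on neighbouring epithelium, was highest in numbers 2 and 3 and lowest in number 5. Its values in control, 10 µM and 30 µM were 38.1, 36.9 and 38.4 CPM in number 2, 36.8, 37.7 and 37.5 in number 3 and 22.5, 26.2 and 19.5 in number 5. The means of number 1 (29.1, 35.2 and 33.2 CPM), number 4 (28.3, 27.9 and 30.6) and number 6 (29.2, 32.6 and 25.1) lay between. The 30 µM library of number 6 was within the range of number 5. Without the 3 libraries Fgf7 lay at 33.2 to 38.4 CPM in numbers 1 to 3 and at 19.5 to 30.6 in numbers 4 to 6, with no overlap. Fgfr2 kept another order, with number 1 at the top (81.9, 82.8 and 79.4 CPM) and number 6 at the bottom (58.1, 61.2 and 56.9), and with 68.0 to 75.9 CPM in every library of numbers 2 to 5. Here number 6 was low in all 3 libraries, 2 of which were among those with the most unaligned pairs.

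Pdgfc and Pdgfd passed without the 3 libraries but not in all 18. Pdgfc means in those 15 libraries ran from 49.5 ± 3.13 CPM (SD, n = 3) in number 5 to 58.3 ± 1.31 (SD, n = 3) in number 3. Pdgfd means ran from 55.1 ± 1.61 CPM (SD, n = 3) in number 4 to 61.1 ± 5.27 (SD, n = 3) in number 5, and the single library of number 6 stood at 77.6 CPM. Pdgfa, Pdgfb, Fgf2 and Fgfr1 did not pass in either fit, with edgeR adjusted p-values of 0.94, 0.25, 0.29 and 0.48 in all 18 libraries and 0.54, 0.27, 0.16 and 0.24 without the 3. A number difference of the size seen for Pdgfa (a 1.16-fold range of number means in the 15 libraries) was thus not separated from the spread within numbers.

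Other measures moved with the number as well. In the 15 libraries, gene counts were 13.7 M to 20.8 M in numbers 1 to 3 and 11.6 M to 14.2 M in numbers 4 to 6, and pairs under the alignment quality limit were 4.79% to 7.17% and 7.76% to 13.1%. The summed level of 8 epithelial and mesothelial markers was 103 to 121 CPM in numbers 1 to 3 and 193 to 265 in numbers 4 to 6. Of these 8 markers, 6 were tested in the fit of all 18 libraries, where 12.6% of all genes differed by number. The 4 that differed were Upk3b, Msln, Krt19 and Wt1. Of the 8, 6 averaged at least 1 CPM, and Epcam and Krt18 were at 0 in 4 and 2 libraries. The summed level of 8 pericyte and smooth muscle markers, nearly all of it Acta2 (mean 3298 CPM), which fibroblasts also express, was 3475 to 3829 CPM in numbers 1 to 3 and 2936 to 3470 in numbers 4 to 6. Of these, 6 were tested in all 18 libraries and 4 differed by number (Rgs5, Cspg4, Acta2 and Myh11), against 12.6% of all genes. Kcnj8 and Abcc9 were each at 0 in 13 libraries. The fibroblast list summed to 30630 to 33708 CPM in numbers 1 to 3 and 28621 to 33472 in numbers 4 to 6. In all 18 libraries 4 of its 12 genes were called (Col3a1, Dcn, Lum and Postn), against 12.6% of all genes. The 6 endothelial markers summed to 7.45 to 12 CPM and the 6 macrophage markers to 1.36 to 4.24, with 0 of 2 tested genes called in each list (2 and 0 at an unadjusted p under 0.05). The part of depth, alignment quality or other cells in the number differences of the members was not tested, and in bulk libraries fewer cells of a type and less RNA per cell cannot be told apart.

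Transcripts of proteins that activate or assist PDGF also varied with number. Of 7 genes of PDGF activation and co-reception, 6 were tested, 0 changed with dose and 4 differed by number, against 12.6% of all genes. Plat, the tissue plasminogen activator that cuts the C chain, averaged 153 CPM in number 1 and 103 in number 6 over the 15 libraries (edgeR adjusted p for number 0.0164 in all 18). Plau, the urokinase that cuts the D chain, averaged 78.9 CPM in number 2 and 56.4 in number 5 (adjusted p 0.00397). Nrp1, a co-receptor for PDGF and semaphorins, averaged 265 CPM in number 3 and 190 in number 5 (adjusted p 0.000322). Lrp1, an endocytic receptor that associates with Pdgfrb, went the other way with 1079 CPM in number 1 and 1624 in number 6 (adjusted p 0.0317). In these values number 1 holds 2 libraries, and number 6 is control replicate 6 alone. The adjusted p-values are from edgeR over all 18 libraries, where Lrp1 reached 3754 CPM, against at most 1624 without the 3.

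Most other FGF ligands were scarce. Of 20, only 5 passed the filter on low counts, and 0 changed with dose. Fgf10, which like Fgf7 acts on epithelium, averaged 23.1 CPM and did not pass for number (adjusted p 0.52). Fgf5 (mean 5.03 CPM), Fgf9 (2.87 CPM) and Fgf21 (2.46 CPM) differed by number (12.6% of all genes did), and Fgf5 averaged 6.35 CPM in number 1 and 3.64 in number 4. Fgf3, Fgf4, Fgf12 and Fgf15 had no count in any library. Of 12 other FGF receptors and co-receptors 8 were tested, 0 changed with dose and 2 differed by number, beside 12.6% of all genes. These were Sdc2 and Sdc3, syndecans that carry the heparan sulphate FGF needs. Sdc3 averaged 113 CPM in number 3 and 54.9 in number 5, and Sdc2 219 in number 2 and 136 in number 5. Fgfr3 averaged 2.48 CPM and Fgfr4 0.0337 CPM, so Fgfr1 and Fgfr2 made up nearly all FGF receptor counts with a kinase.

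Transcripts of the signalling steps below the receptors were counted by role, and no difference between the lists was tested. None of the 19 adaptors and effectors (Frs2, Grb2, Ptpn11, Plcg1 and others) changed with dose, and 0 of 19 differed by number in all 18 libraries, with 4 at an unadjusted p under 0.05 and 3 of 19 passing without the 3 libraries (Pik3ca, Crk and Cblb), where 20.8% of all genes passed. Of 10 feedback inhibitors, 0 changed with dose and 6 differed by number, against 12.6% of all genes. Spry2, an inhibitor of receptor signalling, averaged 29.8 CPM in number 1 and 52.3 in number 2 (edgeR adjusted p 0.000196). Dusp6, the ERK phosphatase, averaged 69.4 and 113 CPM in the same numbers (adjusted p 7.09e-05), and Dusp5, its nuclear counterpart, 45.98 CPM in number 2 and 23.4 in number 5 (adjusted p 9.35e-06). Il17rd, which holds FGF receptors in check, was highest in number 5 (32.3 CPM) and lowest in number 1 (20.2 CPM; adjusted p 0.0199). Spry4 did not pass (adjusted p 0.37), with 5.63 to 8.17 CPM by number.

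Of 16 ERK-responsive transcripts, 0 changed with dose, 8 differed by number in all 18 libraries (12.6% of all genes) and 14 without the 3 (20.8% of all genes). Among the 8, number 2 held the highest mean of 6 and number 1 the lowest mean of 5, in the 15 libraries. Egr2 averaged 29.9 CPM in number 2 and 6.55 in number 5 (edgeR adjusted p 4.0e-08), Fos 27.4 in number 2 and 9.97 in number 1 (adjusted p 4.18e-06), Junb 202 and 107 (adjusted p 0.00141) and Ier2 73.3 and 36.1 (adjusted p 0.0147). Egr1, the zinc finger factor that ERK induces within minutes, averaged 106 CPM in number 2 and 33.5 in number 1 but did not pass in all 18 libraries (adjusted p 0.18) and passed only without the 3 (adjusted p 0.0028). The ETS factors Etv4 and Etv5, slower readouts of FGF signalling, moved little. Etv4 averaged 34.3 CPM in number 2 and stood at 46.6 in the single library of number 6 (edgeR adjusted p 0.00923 in all 18 libraries). Etv5 averaged 37.9 and 44.9 in numbers 2 and 5 (adjusted p 0.23). The number order of these transcripts was not that of the receptors, since Pdgfrb and Pdgfra were about as high in number 1 as in number 2. At 10 µM and 30 µM the log2 fold changes of Egr1 were -0.23 (SE 0.39) and -0.13 (SE 0.39), those of Dusp6 -0.014 (SE 0.13) and 0.0023 (SE 0.13), those of Spry2 -0.05 (SE 0.18) and 0.06 (SE 0.18), and those of Etv5 -0.10 (SE 0.07) and -0.07 (SE 0.07). None passed the test (edgeR adjusted p from 0.94 to 1). Over the 6 pathway lists, median log2 fold changes ran from -0.08 to 0.022 at 10 µM and from -0.07 to 0.083 at 30 µM, against 0.0059 and 0.011 over all genes, and 1 adaptor and 1 feedback inhibitor were at an unadjusted p under 0.05, both at 30 µM. Without the 3 libraries the medians of feedback inhibitors were -0.10 at 10 µM (1 of 10 higher than control) and -0.12 at 30 µM (0 of 10 higher), where they had been -0.05 (2 of 10) and -0.0008 (5 of 10) over all 18. Those of ERK-responsive transcripts were -0.11 at 10 µM (3 of 16 higher) and -0.11 at 30 µM (4 of 16 higher), where they had been -0.08 (4 of 16) and 0.031 (9 of 16). Medians over all genes without the 3 libraries were -0.0010 and -0.0035, and 0 genes of any list were called. Control then lacks number 1 and both uracil doses lack number 6, so dose and number are mixed. With number also in the fit of those 15 libraries, feedback inhibitors had medians of -0.048 (4 of 10 higher) at 10 µM and -0.060 (3 of 10) at 30 µM. Those of ERK-responsive transcripts were -0.059 (5 of 16 higher) and -0.034 (6 of 16).

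**Figure D4:**
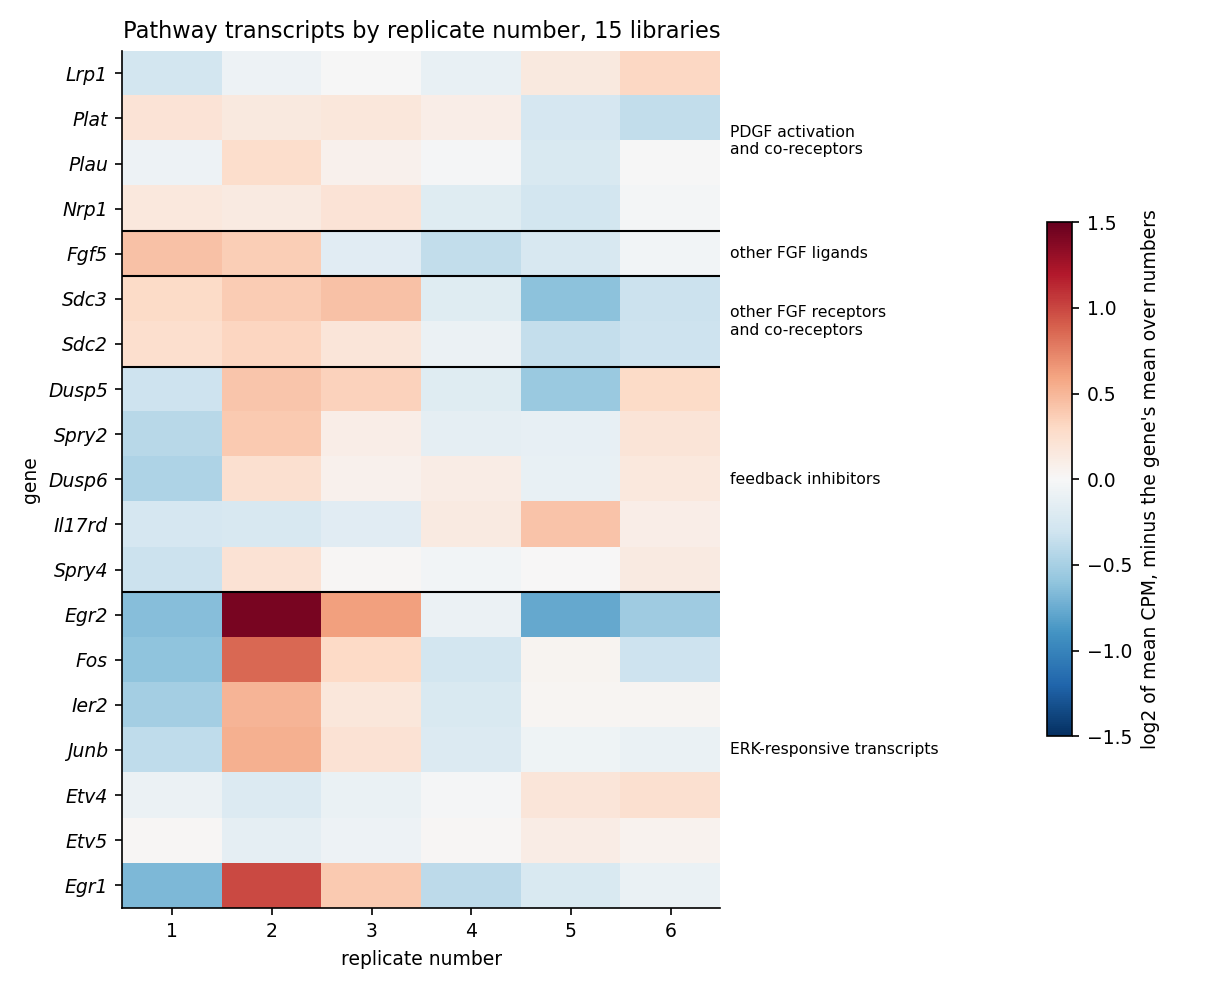
Mean CPM of the named pathway genes (rows, grouped by list) in each replicate number (columns) over 15 libraries, as log2 minus the gene's own mean over numbers; red is higher and blue lower. Egr2 spans the widest range, from 29.9 in number 2 to 6.55 in number 5, and Etv5 one of the narrowest, from 37.9 to 44.9.

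The genes whose levels ran most closely with the members that differed by number were listed from 10617 genes averaging at least 5 CPM, by Pearson's r of log2 CPM over the 15 libraries, which share their numbers and depth. For Pdgfrb these were Ccdc80, which encodes a secreted matrix-binding protein (r = 0.99), and the kinase gene Mapk13 (r = 0.98). For Pdgfra they were Sned1 and Igsf10 (r = 0.97 for each), and for Fgf7 Actr3, a subunit of the actin-branching complex, and Rictor, a subunit of a TOR kinase complex (r = 0.97 for each). For Fgfr2 they were Igfbp3, which binds insulin-like growth factors (r = 0.94), and Penk, the enkephalin precursor (r = 0.93).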

How the data were processed

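Total RNA of 18 MEF libraries was prepared with a stranded, ribosomal RNA-depleting kit and read as paired ends. The authors deposited raw counts of read pairs per Ensembl gene, with no normalisation. The submitters' processing notes name FastQC, HISAT2, SAMtools 1.2 and HTSeq. They name a human genome build although the identifiers are of mouse, so the build behind the counts is unresolved, and the strand setting is not given in the sources used here. The study left out a vehicle and a higher-dose library for human RNA, and the labels do not say which, so all were kept. Control replicate 1 and 30 µM replicate 6 had the most unaligned pairs (54.2% and 37.9%). Whether these were the libraries left out is not given in the sources used here. Each of the 18 count columns carried the name of a single sample, and 0 columns were unmatched.

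GENCODE M39 (GRCm39) gave names, lengths and exon overlaps for 51731 of the 55487 identifiers, and 1 listed gene (Spry3) was not found. Exons of Fgf2 overlap Nudt6 on the opposite strand and those of Fgfr2 overlap Ctbp2 on the same strand through a read-through transcript, and Pdgfa, Pdgfc, Pdgfra and Fgfr1 overlap non-coding genes, so these counts are uncertain where strands or genes could not be separated. The 5 closing entries of uncounted pairs were kept out of library sizes.

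Counts were filtered by edgeR's filterByExpr, scaled by TMM and fitted with the robust quasi-likelihood model (edgeR 4.0.16, R 4.3.3) on dose over all 18 libraries, with Benjamini-Hochberg adjustment and a threshold of 0.05. Replicate number was tested by an F test of its 5 terms with dose in the fit. The study's methods call the libraries of a dose biological replicates, and whether a shared number marks a shared culture is not given in the sources used here. Number means of pathway genes are given over 15 libraries. The scripts were tested on simulated counts. Alternatives were edgeR's RLE size factors in place of TMM, DESeq2 1.42.0, and limma 3.58.1 with voom weights. Further alternatives were other filters, the replicate block, and leaving out libraries. The exon union lengths were added after seeing the data.

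All 10 members are named. Of each pathway list up to 4 genes are named that differed by number, averaged at least 5 CPM and had the widest range of number means, with Spry2, Spry4, Dusp6, Etv4, Etv5 and Egr1 always named, and 2 likeness genes for each member called. Genes named outside this rule were chosen after their values were seen. Members and lists were chosen with earlier results of these data known.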

Additional observations from a re-analysis of the deposited data

Results flagged for a closer look

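Of 30 sets of 6 libraries (10 genes at 3 doses), 6 held a library whose gap to its nearest neighbour exceeded Dixon's 95% critical value as a share of the range, where chance gives about 1 set in 20. Of these, 5 fell in the 2 libraries with the most unaligned pairs. The ratio was computed for the members alone, so the share of such sets over all genes is not known. The count is therefore not a result about these members. In control replicate 1, Fgfr1 stood at 228 CPM (105 to 135 in the other controls) and Pdgfc at 84.8 CPM (49.3 to 59.7). In 30 µM replicate 6, Fgfr1 stood at 237 CPM (116 to 125 in the other libraries of that dose), Pdgfa at 38.4 CPM (24.7 to 28.5) and Pdgfb at 3.71 CPM (1.72 to 2.22). The last case was Pdgfa in control replicate 3, at 29.5 CPM (24.6 to 26.4). The part of unaligned pairs in these values was not tested.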

How the results depend on the processing

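No gene was called for dose in any of the 27 alternatives computed, and none of the 538 member fold changes computed under an alternative passed the test, while 63 changed sign. The cause of the sign changes was not tested. Without a filter on low counts, Fgfr2 stood at 0.011 (10 µM) and 0.0022 (30 µM) and Fgfr1 at 0.0097 (30 µM). Without the 3 libraries, values at 10 µM were 0.014 for Pdgfa, -0.040 for Pdgfd, 0.13 for Pdgfra and 0.067 for Fgfr2, and at 30 µM -0.099 for Pdgfb and 0.074 for Fgfr2. With number also in that fit, values at 10 µM were -0.0114 for Pdgfa, 0.0675 for Pdgfd, -0.0229 for Pdgfra and -0.0298 for Fgfr2. At 30 µM they were -0.0648 for Pdgfb and -0.0215 for Fgfr2. Leaving out each library in turn, the ranges at 10 µM were -0.15 to 0.011 for Pdgfc, -0.013 to 0.14 for Pdgfd, -0.15 to 0.081 for Pdgfra, -0.060 to 0.037 for Fgfr2, -0.047 to 0.12 for Pdgfrb and -0.055 to 0.029 for Pdgfa. At 30 µM they were -0.16 to 0.024 for Pdgfc, -0.068 to 0.10 for Fgf7, -0.21 to 0.17 for Fgfr1, -0.063 to 0.044 for Fgfr2, -0.084 to 0.15 for Pdgfra and -0.11 to 0.11 for Pdgfb.

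Whether the numbers pair the libraries was judged from each library's deviations from its dose mean, in log2 CPM over the genes tested. These deviations, not the levels themselves, were correlated between libraries of different dose. The criterion for pairing was a correlation over 0.1 in every same-numbered pair. Same-numbered libraries correlated over 0.1 in 16 of 18 pairs, and the others (-0.1013 and -0.0335) each held control replicate 1. Without the 3 libraries, 12 of 13 such pairs were over 0.1 (lowest 0.004). Their median was 0.32, against -0.14 for pairs of different number. Since a pair fell short in either set, the numbers did not meet the criterion for pairing. Of the 18 libraries, 14 correlated best with a library of their own number. With the replicate block 0 genes were called in each dose contrast, with 161, 937 and 588 genes at an unadjusted p under 0.05, and Fgf7 at 30 µM stood at -0.0095. The replicate block without the 3 libraries gave -0.033 for Pdgfrb at 10 µM, and -0.065 for Pdgfb and -0.011 for Fgf7 at 30 µM. The replicate block without control replicate 1 and 30 µM replicate 6 gave 0.036 for Pdgfc, 0.028 for Pdgfra and 0.0062 for Fgf2 at 10 µM, and -0.014 for Pdgfa, -0.0096 for Pdgfb, 0.0046 for Pdgfc and 0.030 for Fgfr1 at 30 µM.

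Genes that differed by number rose from 1745 to 2890 without the 3 libraries, to 3287 without control replicate 1 and 30 µM replicate 6, to 2989 in DESeq2 and to 5879 in limma with voom weights, and ran from 1272 to 3498 as single libraries were left out. Members called numbered 4 to 6, with 0 calls lost. Pdgfb passed in limma with voom weights (adjusted p 0.0329). Pdgfb and Fgf2 are limited by their counts.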
